A study of Mus musculus with 6 samples.

Results

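The feedback genes described here are 10 mouse genes: the Sprouty genes Spry1, Spry2 and Spry4, the Spred genes Spred1, Spred2 and Spred3, the ETS-factor genes Etv1, Etv4 and Etv5, and Phlda1. They were taken by gene name from a table of raw counts per gene, in which each of the 10 had 1 row among 35275 genes. All 10 had enough reads to be tested, with between 44 and 4222 counts in a library. The table holds counts for 6 RNA-seq libraries from NIH3T3, an immortalised line of mouse embryo fibroblasts. In 3 libraries the cells overexpressed NgBR, the Nogo-B receptor encoded by Nus1, and were labelled 3T3NgBR. The other 3 libraries came from cells labelled wild type. Per the labels' protocols, the overexpressing line was made by transfection with a pIRES plasmid for HA-tagged NgBR and kept under G418 until stable, and both lines grew in DMEM with 10% calf serum. The labels do not say whether that line was a clone or a pool, nor what plasmid or drug the wild-type cells had received, so effects of NgBR, transfection and selection cannot be told apart. Nor do they say whether libraries of a group came from separate cultures, so p-values measure only the spread between libraries, which may be technical.

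Growth factors acting on receptor tyrosine kinases switch on Ras, which passes the signal through the kinases RAF and MEK to ERK. ERK activity in turn raises transcription of genes whose products damp the same route, and these genes are widely read as a gauge of ERK output. Sprouty proteins interfere between receptor and RAF, and Spred proteins, which carry an EVH1 domain, bring the Ras-inactivating protein neurofibromin to the membrane. Etv1, Etv4 and Etv5 encode the PEA3 subfamily of ETS transcription factors, whose own transcription follows FGF and ERK signals. Phlda1 encodes a pleckstrin-homology-like protein that is also induced through ERK. NgBR has been described as a membrane protein that binds farnesylated Ras, and the design asks how more NgBR changes the fibroblast transcriptome.

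ETS factors of the PEA3 subfamily bind sites with a GGAA core, and start regions of the genes with the smallest unadjusted p (Spry1 and Spred2), of Spry2, the most abundant per length, and of the 2 Etv genes with a PEA3 motif are shown for that reason. Windows of 300 bases were used, 250 before and 50 after the RefSeq start site (GRCm38.p6). They cover 7 of the 10 genes, 9 windows in all. The shares and GC range below include no window of Spry4, Etv4 or Phlda1. The motifs AGGAAG (PEA3), CCGGAA (ETS), TGACTCA (AP-1) and TGACGTCA (CRE) were searched on both strands, and their letters are in capitals, with neighbouring matches allowed to overlap. The windows are chr3:37639697-37639996 (plus strand) for Spry1, chr14:105896770-105897069 (minus) for Spry2, chr11:19924192-19924491 (plus) for Spred2, chr12:38779832-38780131 (plus) for Etv1 and chr16:22438319-22438618 (minus) for Etv5, the more downstream of its start sites.
Spry1: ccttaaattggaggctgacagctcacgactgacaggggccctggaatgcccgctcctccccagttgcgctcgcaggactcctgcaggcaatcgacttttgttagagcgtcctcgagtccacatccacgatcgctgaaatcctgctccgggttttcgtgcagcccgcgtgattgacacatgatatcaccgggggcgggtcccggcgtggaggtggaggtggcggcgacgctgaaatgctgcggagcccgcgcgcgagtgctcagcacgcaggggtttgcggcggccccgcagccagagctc
Spry2: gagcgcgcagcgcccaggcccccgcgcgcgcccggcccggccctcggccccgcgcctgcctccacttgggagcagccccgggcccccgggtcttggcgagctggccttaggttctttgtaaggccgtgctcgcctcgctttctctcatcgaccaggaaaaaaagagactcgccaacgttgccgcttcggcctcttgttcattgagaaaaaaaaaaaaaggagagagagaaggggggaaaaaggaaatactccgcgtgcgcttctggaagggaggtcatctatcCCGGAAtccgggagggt
Spred2: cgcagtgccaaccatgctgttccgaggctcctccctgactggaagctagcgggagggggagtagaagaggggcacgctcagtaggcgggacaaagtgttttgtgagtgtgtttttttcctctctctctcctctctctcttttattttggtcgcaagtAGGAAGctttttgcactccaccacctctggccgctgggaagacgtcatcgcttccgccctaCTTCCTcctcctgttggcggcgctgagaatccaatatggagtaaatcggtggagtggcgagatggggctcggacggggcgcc
Etv1: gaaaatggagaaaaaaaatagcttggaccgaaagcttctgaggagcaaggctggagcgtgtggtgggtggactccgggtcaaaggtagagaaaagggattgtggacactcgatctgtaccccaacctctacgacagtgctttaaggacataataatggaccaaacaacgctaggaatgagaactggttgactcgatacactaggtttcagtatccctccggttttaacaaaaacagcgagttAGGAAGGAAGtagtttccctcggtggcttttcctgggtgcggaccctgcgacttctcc
Etv5: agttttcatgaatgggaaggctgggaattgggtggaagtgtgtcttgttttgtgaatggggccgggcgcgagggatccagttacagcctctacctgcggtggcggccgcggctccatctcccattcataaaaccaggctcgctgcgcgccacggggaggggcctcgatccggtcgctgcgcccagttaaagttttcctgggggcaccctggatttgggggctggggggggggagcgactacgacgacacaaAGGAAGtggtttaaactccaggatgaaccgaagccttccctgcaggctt
AGGAAG was in 3 of the 9 windows (33.3%), against 35.4% of 32851 windows of all genes, and CCGGAA in 1 (11.1%), against 14.9%. TGACTCA and TGACGTCA were in 0 of the 9, against 5.20% and 1.79% of all windows. The share of windows with a PEA3 or ETS motif was thus close to that of genes in general. Spred2 held 2 AGGAAG matches, which begin 93 and 32 bases before its start site, the nearer one on the opposite strand. In the Etv1 window shown, at the more upstream of its start sites, the 2 matches overlap. The Etv1 and Etv5 windows not shown held none of the motifs. GC content lay between 44.0% and 74.0% in the 9 windows and was above the median of all windows, 52.7%, in 7 of them.

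Depth ran with the groups: libraries of NgBR-overexpressing cells held between 7369961 and 10358381 counts, against 29515072 and 35511769 at the lowest and highest in wild type, a 3.50-fold gap in mean depth. The first principal component, 46.5% of the variance, separated the groups, and the second, 28.6%, set library 2 of each group apart from the other 4. Nus1 itself was at 184, 185 and 165 CPM (counts per 1000000 of the TMM-scaled library size) in NgBR-overexpressing libraries 1 to 3, against 212, 187 and 233 CPM in wild type (log2 fold change -0.24, SE 0.21, edgeR adjusted p = 0.786), so counts at mouse Nus1 were not higher under the label, and reads of a transgene need not be counted there. Every direction below is therefore that of the libraries labelled NgBR overexpression. Of 8 fibroblast markers all were tested and edgeR called 0, near the background of 3.39% of all genes. At an unadjusted p under 0.05 there were 0, against 11.4% of all genes. Their log2 fold change was positive for 4 and negative for 4, and in 1 the groups did not overlap, against 18.6% of all genes. Their summed levels were 20852 to 31333 CPM in overexpressing and 19730 to 23595 CPM in wild-type libraries. Epithelial markers summed to at most 0.982 and 0.301 CPM, endothelial ones to at most 2.20 and 0.945 CPM and leukocyte ones to at most 3.44 and 3.49 CPM, with Epcam, Krt18 and Cldn4 at 0 counts in all 6 libraries. Neural markers summed to 10.1 to 24.6 CPM in overexpressing libraries, against 7.41 to 9.93 CPM in wild type. Of 4 tested, edgeR called 1, Syt1, a synaptic vesicle protein (adjusted p = 0.0308), against 3.39% of all genes tested. Syt1 was near the floor, at 5, 6 and 6 counts in overexpressing libraries 1 to 3, against 0, 2 and 0 in wild type. The part of neural markers in the results was not tested.

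None of the 10 feedback genes passed the test, and the estimates of single genes ran between 0.90-fold for Etv1 and 2.09-fold for Spry1 of wild type. Summed over the 10, levels were 439 to 518 CPM in overexpressing and 361 to 405 CPM in wild-type libraries, a difference that was not tested. With edgeR's quasi-likelihood test and Benjamini-Hochberg adjustment over 12651 genes, 0 of 10 were called, against 3.39% of all genes tested. At an unadjusted p under 0.05 there were 2, Spry1 and Spred2, against 11.4% of all genes, and DESeq2 and limma-voom also called 0, each with 2 at an unadjusted p under 0.05. In 1 of the 10, Spred2, no CPM value of one group lay within the range of the other, against 18.6% of all genes, 9.21% with the overexpressing libraries above. The median log2 fold change of the 10 was 0.29, beside -0.01 over all genes tested. The log2 fold change was positive for 9 of the 10, against 48.7% of all genes, but the signs of Spry4, Spred3 and Phlda1 turned under other settings or without single libraries. The 10 were also chosen with earlier results of these data known, so these shares are descriptive. The 95% interval lay within a 2-fold change in either direction for 7 of the 10, while those of Spry1, Spred2 and Etv4 reached beyond it. That 0 of 10 were called does not show that the genes did not differ. In bulk RNA a change in the share of cells that express a gene and a change of RNA per cell cannot be told apart.

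**Figure D1:**
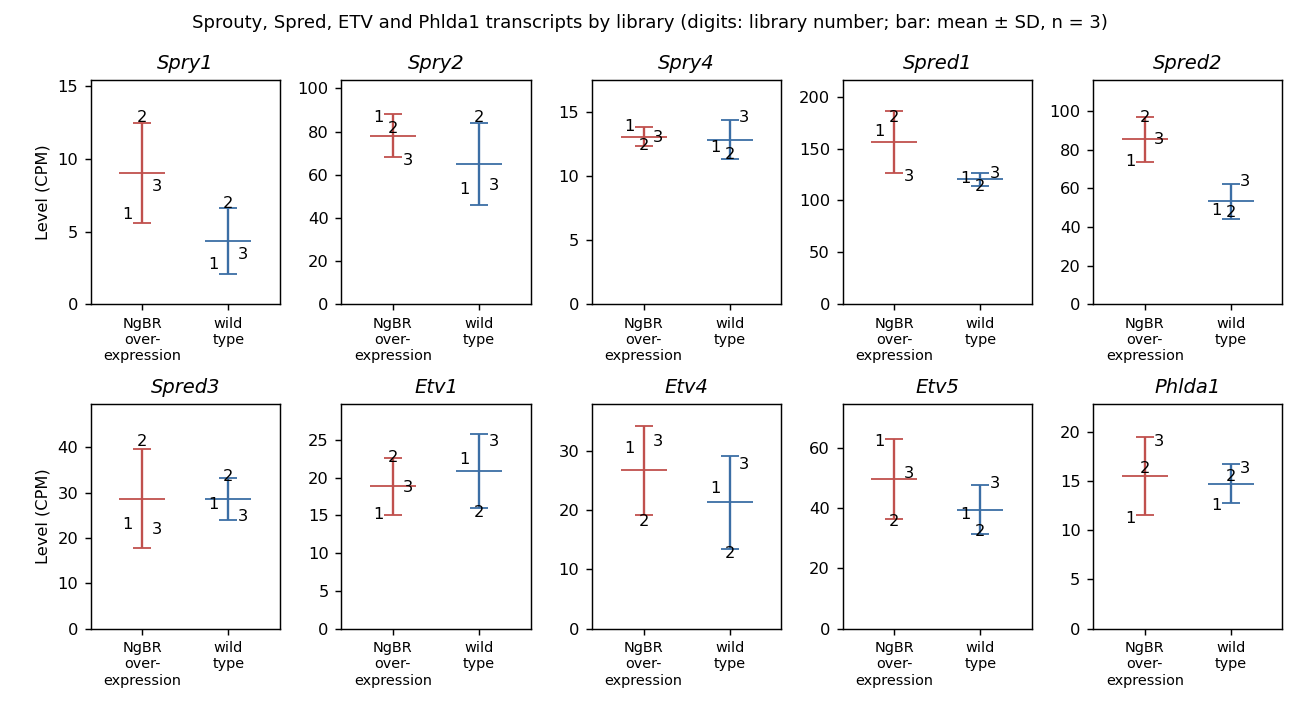
Level in CPM (vertical axes, from 0, scaled per gene) of the 10 feedback genes in libraries of NgBR-overexpressing (left, red) and wild-type cells (right, blue). Digits are the library numbers and bars the mean ± SD (n = 3 each); the groups are apart only for Spred2, and library 2 is often the highest or lowest of its group.

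Among the Sprouty genes, Spry1 had the largest difference of all 10 and did not pass the test. Spry1 (ENSMUSG00000037211, mm10 chromosome 3, 37639947 to 37644598, plus strand), whose product restrains growth factor signalling in the developing kidney, was at 6.17, 12.9 and 8.12 CPM in NgBR-overexpressing libraries 1 to 3, against 2.72, 6.90 and 3.43 CPM in wild type. Library 2 was the highest in both groups, and wild-type library 2 lay above overexpressing library 1, so that the groups overlapped. Overexpressing libraries averaged 9.05 ± 3.44 CPM and wild-type libraries 4.35 ± 2.24 CPM (SD, n = 3 each), and edgeR estimated a log2 fold change of 1.06 (SE 0.42, interval at 95% of 0.12 to 2.01, adjusted p = 0.345). It was 1.57 without wild-type library 2 and 0.72 without overexpressing library 2, not called in either fit (edgeR adjusted p = 0.0941 and 0.613). With the replicate number as a block it was called, at 1.10 (edgeR adjusted p = 0.0369), though the numbers were not taken as pairs. These are small counts, 44, 130 and 85 in overexpressing libraries, against 95, 204 and 114 in the deeper wild-type libraries. An antisense transcript annotated over 710 exonic bases of Spry1 has no row in the table, and without a stated strand setting reads of the pair cannot be told apart.

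Spry2 and Spry4 differed less. Spry2 (ENSMUSG00000022114, chromosome 14, 105891947 to 105896819, minus strand), which binds the ubiquitin ligase CBL, was at 86.3, 81.4 and 66.8 CPM in overexpressing libraries, against 52.9, 86.7 and 55.0 CPM in wild type. The overexpressing libraries lay above wild-type libraries 1 and 3 and below wild-type library 2, and the log2 fold change of 0.27 (SE 0.25, 95% interval -0.30 to 0.84) was not called (edgeR adjusted p = 0.813). It moved with single wild-type libraries, to 0.15, 0.53 and 0.16 when library 1, 2 or 3 was left out, and stayed uncalled. Spry4 (ENSMUSG00000024427, chromosome 18, 38586247 to 38601415, minus strand), a further inhibitor of Ras activation by receptors, was at 13.9, 12.4 and 13.0 CPM in overexpressing libraries, against 12.2, 11.7 and 14.6 CPM in wild type. All 6 values lay close together, and the log2 fold change was 0.03 (SE 0.23, 95% interval -0.48 to 0.54, edgeR adjusted p = 0.990).

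Of the Spred genes, Spred2 was the one member whose groups did not overlap. Spred2 (ENSMUSG00000045671, chromosome 11, 19924375 to 20024026, plus strand), whose start region with its pair of PEA3 motifs is printed above, was at 73.8, 97.0 and 85.4 CPM in overexpressing libraries, against 48.6, 47.7 and 63.8 CPM in wild type. Every overexpressing library lay above every wild-type one. The averages were 85.4 ± 11.6 CPM in overexpressing and 53.4 ± 9.05 CPM in wild-type libraries (SD, n = 3 each), and the log2 fold change of 0.68 (SE 0.22, 95% interval 0.18 to 1.18) did not pass the adjusted threshold (edgeR adjusted p = 0.206, DESeq2 adjusted p = 0.0824). Its log2 fold change lay between 0.57 and 0.83 when each library was left out in turn and was called in none of those fits. Spred1 (ENSMUSG00000027351, chromosome 2, 117121374 to 117182279, plus strand), the gene mutated in human Legius syndrome, was at 167, 180 and 123 CPM in overexpressing libraries, against 121, 114 and 126 CPM in wild type. Overexpressing libraries 1 and 2 were above all wild-type values and library 3 was within them (log2 fold change 0.38, SE 0.22, 95% interval -0.12 to 0.89, edgeR adjusted p = 0.617). Spred3 (ENSMUSG00000037239, chromosome 7, 29158829 to 29170411, minus strand), a family member with a restricted expression pattern, was at 22.9, 41.3 and 21.9 CPM in overexpressing libraries, against 27.4, 33.6 and 24.6 CPM in wild type. The groups interleaved and library 2 was the highest in each (log2 fold change 0.01, 95% interval -0.65 to 0.66, edgeR adjusted p = 0.997). It shares 202 exonic bases with Ggn on the opposite strand, which had 38, 89 and 56 counts in overexpressing libraries, against 177, 60 and 157 in wild type, beside 163, 417 and 229 and 957, 994 and 818 counts for Spred3.

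None of the 3 ETS-factor genes passed the test (edgeR), against 3.39% of all genes, and their signs differed. At an unadjusted p under 0.05 there were 0, against 11.4% of all genes. For 3 genes both counts are near the background. Etv5 (ENSMUSG00000013089, chromosome 16, 22381309 to 22439719, minus strand), which is needed to maintain spermatogonial stem cells, was at 62.2, 35.6 and 51.4 CPM in overexpressing libraries, against 37.8, 32.4 and 48.4 CPM in wild type. Etv4 (ENSMUSG00000017724, chromosome 11, 101769742 to 101785371, minus strand), a partner of Etv5 in limb and kidney development, was at 30.3, 18.1 and 31.5 CPM in overexpressing libraries, against 23.6, 12.6 and 27.7 CPM in wild type. For both genes library 2 was the lowest of each group and the groups overlapped, with log2 fold changes of 0.33 for Etv5 (SE 0.27, edgeR adjusted p = 0.762) and 0.32 for Etv4 (SE 0.34, edgeR adjusted p = 0.834). Etv1 (ENSMUSG00000004151, chromosome 12, 38779380 to 38870484, plus strand), also a fusion partner in human tumours, was at 15.2, 22.7 and 18.7 CPM in overexpressing libraries, against 22.5, 15.4 and 24.8 CPM in wild type. It was the 1 member with a negative log2 fold change, -0.15 (SE 0.27, 95% interval -0.75 to 0.45, edgeR adjusted p = 0.926), and library 2 was the highest overexpressing and the lowest wild-type value. Leaving out 1 library moved all 3 estimates. The log2 fold change of Etv5 was 0.13 without overexpressing library 1 and 0.52 without overexpressing library 2, and 0.21 and 0.50 without wild-type libraries 2 and 3. That of Etv4 ran between 0.05 without wild-type library 2 and 0.56 without wild-type library 3, and that of Etv1 between -0.32 and -0.0065 without the same libraries, with no call in any of these fits.

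Phlda1 (ENSMUSG00000020205, chromosome 10, 111506286 to 111508645, plus strand) was at 11.2, 16.2 and 19.0 CPM in overexpressing libraries, against 12.5, 15.5 and 16.3 CPM in wild type. The wild-type values lay inside the span of the overexpressing ones (log2 fold change 0.08, SE 0.26, 95% interval -0.52 to 0.67, edgeR adjusted p = 0.970). An opposite-strand transcript, Gm28592, overlaps 727 of its exonic bases and had 0 counts in all 6 libraries.

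Levels were compared between genes per exonic length, as CPM per kilobase of annotated exon. Spry2 was the most abundant of the 10, at 37.5 ± 4.87 CPM per kilobase in overexpressing and 31.1 ± 9.06 in wild-type cells (SD, n = 3 each), followed by Spred1 at 23.1 ± 4.40 and 17.7 ± 0.954 and Spred2 at 18.5 ± 2.51 and 11.6 ± 1.96. Etv5, Etv4, Phlda1 and Spred3 came next in the same order in both groups, with means of 12.1, 8.59, 7.02 and 4.61 CPM per kilobase in overexpressing and 9.63, 6.86, 6.69 and 4.59 in wild-type cells. At the low end the order differed: Spry1, Spry4 and Etv1 had 3.12, 2.75 and 1.42 CPM per kilobase in overexpressing cells, while in wild type Spry4 had 2.70, Etv1 1.57 and Spry1 1.50. In overexpressing cells the library ranges of neighbours in this order overlapped except between Spry2 and Spred1, Spred2 and Etv5, and Spry4 and Etv1. In wild type they did not overlap between Spry2 and Spred1, Spred1 and Spred2, Phlda1 and Spred3, Spred3 and Spry4, and Spry4 and Etv1. Exonic length is that of all annotated isoforms together, which for Etv1 is 13296 bases and lowers its value where a shorter isoform is used.

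**Figure D2:**
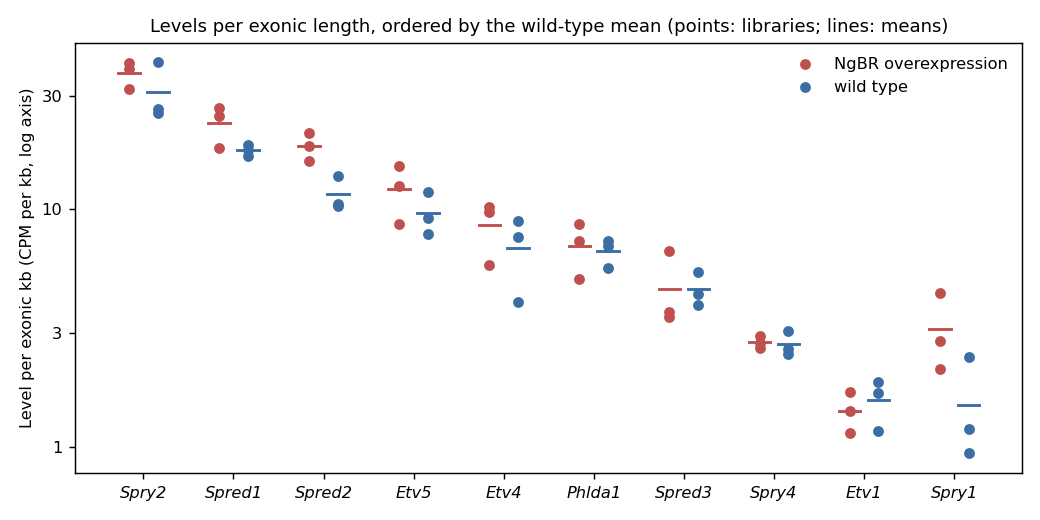
Level per exonic length (CPM per kilobase, log axis) of the 10 genes, ordered by the wild-type mean. Points are libraries of NgBR-overexpressing (red, left of each pair) and wild-type cells (blue) and lines are means; Spry2 was the highest, at 37.5 and 31.1 CPM per kilobase, and Spry1 and Etv1 were among the lowest.

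Among the members of each family described here, 1 or 2 genes supplied most of the transcripts. Spry2 made up 89.1%, 84.7% and 85.3% of the summed per-length level of Spry1, Spry2 and Spry4 in overexpressing libraries 1 to 3, against 87.9%, 89.6% and 86.1% in wild type. Spry1 contributed 4.58%, 9.61% and 7.45% in overexpressing libraries, against 3.24%, 5.12% and 3.86% in wild type, a share that overlapped between the groups. Sprouty transcripts in both lines were thus mostly Spry2. In the Spred family, Spred2 held 36.1%, 38.7% and 46.1% of the per-length sum in overexpressing libraries, against 32.1%, 31.8% and 37.9% in wild type, and Spred1 between 45.2% and 55.5%, against 51.2% and 54.4% at the lowest and highest in wild type. Of the ETS-factor genes, Etv5 held 52.0% to 58.1% in overexpressing and 49.8% to 60.2% in wild-type libraries, and Etv1 4.37% to 10.5% and 8.26% to 9.13%. All these shares overlapped between the groups.

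Much of the spread within groups ran with library 2 of each group. Spry1 and Spred3 were highest in library 2 of both groups, and Spry4, Etv4 and Etv5 were lowest there, 2 and 3 of the 10 genes. Over all genes tested, 22.0% were highest and 24.4% lowest in library 2 of both groups, so this split is common in these data. The deviation of a gene from its mean ran with its exonic length in most libraries, with Spearman's rho of 0.0684, 0.347 and -0.467 in overexpressing libraries 1 to 3, against -0.226, 0.242 and -0.299 in wild type (across genes, which are not independent). Library 2 had the positive sign and library 3 the negative sign in both groups, and the part of this trend in the members' values was not tested. Among the 10 genes, the pair most alike across the 6 libraries was Etv4 and Etv5, whose centred log2 CPM differed by a root mean square of 0.23. Genes outside the 10 lay nearer to each, but they were sought in a far larger pool, so this says nothing about the members. The nearest with a mean of at least 5 CPM was at 0.024 from Etv4 and 0.065 from Etv5. For Spred2, the gene with the smallest unadjusted p, the nearest of the 10 was Spred1 at 0.27. The 3 genes with a mean of at least 5 CPM that were nearest to Spred2 were Gramd4 at 0.046, Epb4.1l2 at 0.094 and the immediate early gene Egr2 at 0.10. Gramd4 averaged 85.2 ± 11.2 CPM in overexpressing and 51.1 ± 6.45 CPM in wild-type cells (SD, n = 3 each).

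**Figure D3:**
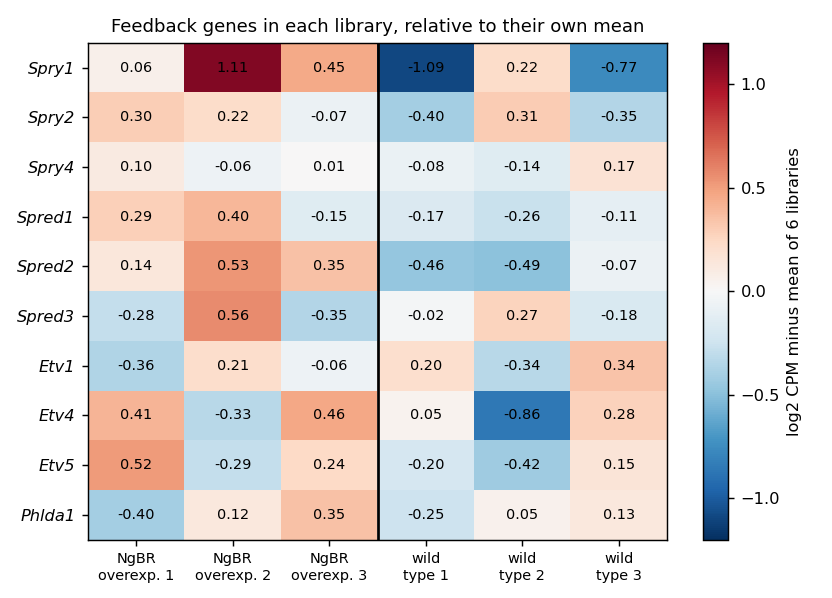
Log2 CPM of each feedback gene minus its mean over the 6 libraries (colour and printed value), with the 3 libraries of NgBR-overexpressing cells left of the line and the 3 of wild-type cells right of it. Spry1 ran from 1.11 in overexpressing library 2 to -1.09 in wild-type library 1, and Etv4 and Etv5 were lowest in library 2 of each group.

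Other genes known to follow ERK activity were set beside the feedback genes. This list was chosen with earlier results of these data known, so its shares beside those of all genes are descriptive and no test of the list. By edgeR 2 of 12 rose, against 2.04% of all genes tested that were called higher, and 0 fell, against 1.35%; limma-voom called the same 2, Ier3 and Dusp5. Ier3, an immediate early gene that modulates cell survival, was at 62.9, 117 and 126 CPM in overexpressing libraries, against 32.0, 33.3 and 36.9 CPM in wild type. Every overexpressing library was above the wild-type ones (log2 fold change 1.58, SE 0.28, edgeR adjusted p = 0.0163). Dusp5, a nuclear phosphatase that acts on ERK, was at 54.3, 40.0 and 46.2 CPM in overexpressing libraries, against 21.6, 21.7 and 25.3 CPM in wild type, again with no overlap (log2 fold change 1.03, SE 0.22, edgeR adjusted p = 0.0333). Each was called in 13 of 18 alternative fits, and the lost calls were among those with fewer libraries. Leaving out wild-type library 1 or 2 or overexpressing library 2 or 3 ended the call of Ier3 (edgeR adjusted p = 0.0686, 0.0600, 0.0520 and 0.0650), which held without wild-type library 3 or overexpressing library 1 (0.0436 and 0.0146), with log2 fold changes of 1.40 to 1.83 over these 6 fits. It was also not called without both libraries numbered 2 (edgeR adjusted p = 0.0590). Leaving out any wild-type library or overexpressing library 1 or 3 ended that of Dusp5 (edgeR adjusted p = 0.186, 0.0783, 0.110, 0.148 and 0.0828), which held without overexpressing library 2 (0.0326), with log2 fold changes of 0.91 to 1.13. DESeq2 called 3 of the 12, against 5.69% of all genes it tested, and put 8 at an unadjusted p under 0.05, against 12.6%. The third was Errfi1, whose product inhibits the EGF receptor, at 124, 375 and 199 CPM in overexpressing libraries, against 86.2, 73.5 and 98.2 CPM in wild type (DESeq2 log2 fold change 1.45, adjusted p = 0.00651; edgeR 1.44, adjusted p = 0.0918). Its overexpressing values all lay above the wild-type ones, and library 2 was far above the other two. The log2 fold change of the 12 genes ran between -0.92 for Epha4 and 1.58 for Ier3, with a median of 0.62, beside -0.01 over all genes tested. It was positive for 9 of the 12, against 48.7% of all genes, and by edgeR 6 were at an unadjusted p under 0.05, against 11.4%. In 6 of the 12 the CPM values of the groups did not overlap, against 18.6% of all genes. Epha4, an ephrin receptor chosen after its value was seen, was at 14.9, 18.6 and 9.17 CPM in overexpressing libraries, against 26.7, 30.2 and 23.5 CPM in wild type, and was not called (edgeR adjusted p = 0.179). Whether these genes and the feedback genes differ from each other was not tested.

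**Figure D4:**
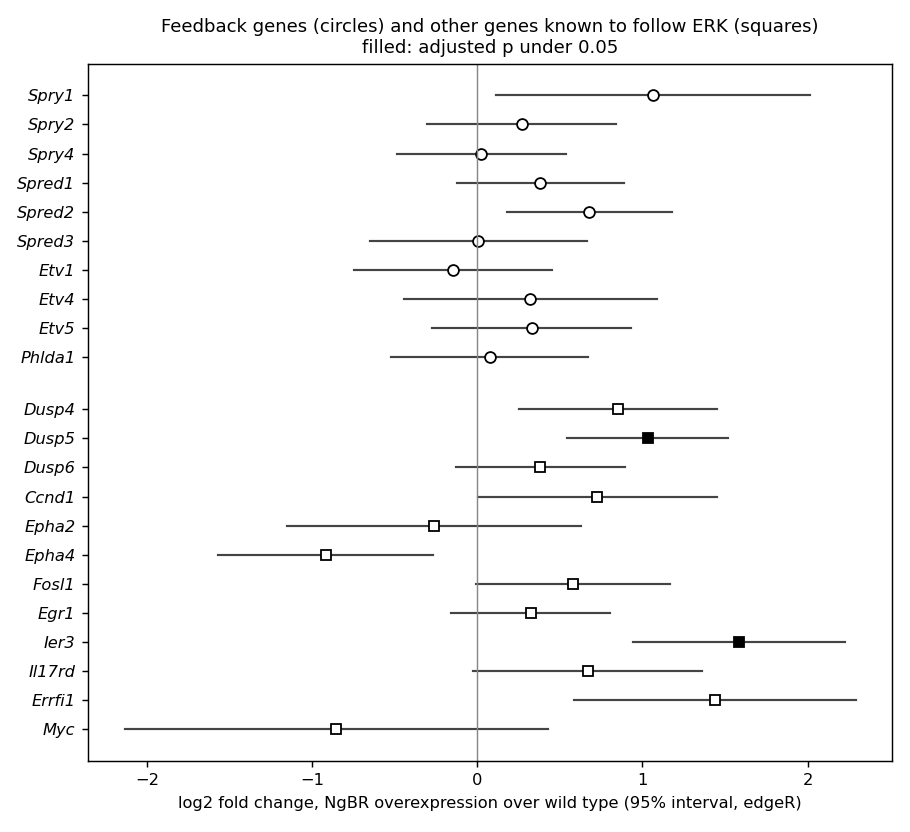
Log2 fold change of NgBR-overexpressing over wild-type cells with its 95% interval from edgeR (horizontal axis) for the 10 feedback genes (circles) and 12 other genes known to follow ERK activity (squares). Filled symbols passed the adjusted threshold, Ier3 and Dusp5; all 10 circles are open, and the intervals of Spry1 and Spred2 leave out 0 before adjustment.

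Transcripts of the route that feeds these genes were counted next. Of 18 genes of the Ras-ERK cascade, from receptor adaptors such as Shc1 to the kinases, edgeR called 0, against 3.39% of all genes, with 0 at an unadjusted p under 0.05, against 11.4% (1 by DESeq2, which also called 0). At that share of calls 0 of 18 is near the background. Their median log2 fold change was -0.01, with a range of -0.54 to 0.53, 9 positive and 9 negative. Ptpn11, the phosphatase SHP2, averaged 374 ± 74.5 CPM in overexpressing and 372 ± 57.9 CPM in wild-type cells (SD, n = 3 each), and the FGF receptor adaptor Frs2 183 ± 79.9 and 181 ± 7.0 CPM. Of 8 tested genes whose products are known to bind Sprouty or Spred proteins or to degrade these or ETS factors, edgeR called 0. This is also near the background of 3.39%. At an unadjusted p under 0.05 there was 1, against 11.4% of all genes, and the median log2 fold change was 0.11. In 2 of the 8 the groups did not overlap, against 18.6% of all genes. These were Cav1, higher in overexpressing libraries, and Det1, lower there (Det1 log2 fold change -0.49, edgeR adjusted p = 0.615). Nedd4, a ubiquitin ligase, was at 2061 ± 491 CPM in overexpressing and 1896 ± 154 CPM in wild-type cells, and Nf1, neurofibromin, at 175 ± 102 and 146 ± 55.2 CPM. Cav1, caveolin, was at 800, 766 and 829 CPM in overexpressing libraries, against 582, 374 and 582 CPM in wild type, with no overlap (log2 fold change 0.64, SE 0.28, edgeR adjusted p = 0.416).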

How the data were processed

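RNA-seq was read from 1 table of raw counts per gene, 3 libraries each of NgBR-overexpressing and wild-type NIH3T3 cells. The counts were deposited by the authors as whole numbers and not normalized. The submitters' processing notes name HISAT2 2.0.5, featureCounts 1.5.0-p3, DESeq2 and build mm10. The sources used here do not give the annotation release, strand setting or filters. Positions and exonic lengths come from GENCODE vM21 of the same assembly, which holds 97.8% of the identifiers, and start regions from RefSeq.

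edgeR 4.0.16 in R 4.3.3 was used with TMM factors, filterByExpr by group and the quasi-likelihood F test on all 6 libraries with no covariate, with calls at p under 0.05 after Benjamini-Hochberg adjustment. CPM was computed on TMM-scaled library sizes, and root mean square distances on log2 CPM (prior count 2). The fit was tested on simulated data. Libraries of a group differed by more than sampling noise (chi-square per degree of freedom of at least 28.9 for each pair). The alternatives were DESeq2 1.42.0, limma-voom (limma 3.58.1), other scalings and filters, thinning to the shallowest depth, a length offset, the replicate number as a block, and libraries left out. The members and lists were chosen with earlier results of these data known. The text names all 10 members, called genes of each further list or else its 3 most abundant, and the 3 genes nearest to the member with the smallest p; a gene that this rule takes is not reported here, and Syt1, Epha4 and Errfi1 were chosen after their values were seen. Cop1 was measured as Rfwd2, and Adgre1 was not matched.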

Additional observations from a re-analysis of the deposited data

How the results depend on the processing

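None of the 10 feedback genes was called in 16 of 18 alternative fits, among them all 6 that left out 1 library. The replicate number as a block called 1 of them, Spry1 (log2 fold change 1.10, edgeR adjusted p = 0.0369), also 1 together with the exonic length offset (1.14, edgeR adjusted p = 0.0408). The titles number the libraries 1 to 3 in each group, and the deviations of same-numbered libraries correlated at 0.0147, 0.341 and 0.434. Libraries 2 and 3 of each group correlated best with their own number, against -0.399 and -0.367 when these were crossed. Neither library 1 correlated best with its own number, so the numbers were not taken as pairs. Whether libraries 2 and 3 share a step across the groups was not tested. The count of all genes called, 429, was 719 with that block, 719 with DESeq2, 688 without a filter on low counts, and between 225 and 374 without single libraries. Nus1 was not called in any fit, at -0.35 to -0.17. Signs turned for genes with a log2 fold change near 0 and for Nf1, at 0.26, and the cause was not tested. Spred3 was at -0.035 with limma-voom, -0.014 without composition factors, -0.045 without a filter, -0.0078 after thinning, -0.042 and -0.030 with the block without and with the length offset, -0.22 without both libraries numbered 2, and -0.36 to 0.17 without single libraries. Spry4 was at -0.025 without a filter, -0.00079 without both libraries numbered 2 and -0.036 to 0.13 without single ones, and Phlda1 at -0.099 to 0.25. Frs2 was at -0.075 with limma-voom, -0.014 without composition factors, -0.041 without a filter, -0.025 with the length offset, -0.076 and -0.065 with the block without and with it, -0.40 without both libraries numbered 2, and -0.4 to 0.24 without single ones. Ptpn11 was at -0.014 without composition factors, -0.041 without a filter, -0.00049 with the block and -0.11 to 0.16 without single libraries. Nedd4 was at -0.15 without both libraries numbered 2 and -0.083 to 0.27 without single ones. Nf1 was at -0.30 to 0.59 and was negative only without overexpressing library 2. A count of 3 corresponded to 0.287 to 0.421 CPM in overexpressing libraries and 0.0859 to 0.102 CPM in wild type, far under every member.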
